A study of Mus musculus with 6 samples.

Results

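The genes described here are the tripartite motif (TRIM) family, taken as every row of the count table whose symbol is Trim followed by a number and at most 1 letter from a to d. This rule found 68 genes among 25899 symbols. The family was chosen by its difference in counts between treated and untreated libraries: it was picked because Trim67 had the largest fall among the genes named in earlier results on these libraries, so its difference between treated and untreated cells is given as a description, with no test. Of the 68 members, 45 had enough reads for the test across genes, 20 were too low to judge, and 3 lie inside another gene and received no reads.

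Most TRIM proteins have an N-terminal RING domain, which often acts as an E3 ubiquitin ligase, followed by B-box zinc fingers and a coiled coil. The C-terminal domain divides them into classes: PRY-SPRY proteins, many of which act in innate immunity, NHL proteins that bind RNA or act in neurons, PHD-bromodomain proteins of chromatin, and COS-box proteins of microtubules and muscle. In pluripotent cells the best known members are Trim28 (KAP1), which silences endogenous retroviruses through KRAB zinc finger proteins, and Trim71 (LIN41), an RNA-binding repressor and target of the let-7 microRNAs.

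The measurements were of nascent RNA in mouse embryonic stem cells of the line E14tg2a, on a 129SV background. Treated cells received 250 nM 4-hydroxytamoxifen (4OHT) for 2 h, which the study used to activate ERK signalling through cRAF-ErT2, and untreated cells were collected at 0 h. Clones a, b and c were each sampled in both states, giving 3 libraries per group. All 6 libraries carried the stably expressed cRAF-ErT2 cassette, had grown with serum, LIF and 2 µM Chir99021, and had then spent 24 h with serum, LIF and 250 nM PD173074, an FGF receptor inhibitor. Ethynyl uridine at 5 mM, given 15 min before RNA isolation, marked newly made RNA, which was captured for sequencing. Cells without the cassette given 4OHT were not analysed here, so an effect of 4OHT itself cannot be told apart from one through the cassette, and each clone is a single line.

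The libraries held 7295334 to 9431819 counts after 4OHT and 9745747 to 12168380 in untreated cells. The 8 stem cell markers were all detected, with mean levels of 94.1 to 1020 CPM (each gene's count scaled to a fixed library size) after 4OHT and 62.1 to 654 CPM in untreated cells. Their sums were 1990 to 2364 CPM after 4OHT, below the 2513 to 2589 CPM of untreated cells. The markers did not all fall. Zfp42, the highest after 4OHT at 1020 CPM, was above every untreated mean, of which Esrrb had the highest at 654 CPM. Dppa4 was the lowest in untreated cells at 62.1 CPM, and no marker was below the 94.1 CPM of Lin28a after 4OHT. The 8 fibroblast markers summed to 3.59 to 5.41 CPM after 4OHT and 2.73 to 3.05 CPM in untreated cells, and Postn and Lum were at 0 in both groups. The 6 neural markers summed to 22.4 to 24.3 CPM after 4OHT and 33.4 to 38.4 CPM in untreated cells, with Tubb3 and Neurod1 at 0 in both. Most of each sum was Map2, with means of 15.6 CPM after 4OHT and 23.7 CPM untreated. Whether another gene covers the markers at 0 was not checked, and 99.3% of 908 coding genes wholly inside other genes were at 0. In these bulk libraries, fewer cells of a type and less RNA per cell cannot be told apart.

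Among the 44 tested members other than Trim67, 11 were called higher after 4OHT (25.0%) and 15 lower (34.1%) by edgeR's quasi-likelihood test with a Benjamini-Hochberg adjusted p below 0.05, and 18 were not called. Over all 13869 tested genes 28.5% were called higher and 28.6% lower, so the family's shares lay near the background. A log2 fold change of at least 1 was reached by 4 members called higher (Trim72, Trim71, Trim8 and Trim46) and 3 called lower (Trim47, Trim63 and Trim34a), against 6.83% and 9.55% of all tested genes. The 3 libraries of each group did not overlap for 12 members higher after 4OHT and 17 lower, beside 31.4% and 31.9% of all genes. The median log2 fold change of these 44 members was -0.06, against -0.00054 over all tested genes. With libraries scaled by their totals alone, a setting that moves the median of all genes by -0.20, the family counts were 7 higher and 22 lower, beside 2407 higher and 5684 lower over all genes. Without both libraries of clone b they were 7 higher and 6 lower, beside 2713 and 2708 over all genes, and without both of clone a 7 were higher, beside 2958. Clone c differed most from the other clones in both groups, and without its libraries 11 members were higher and 14 lower.

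**Figure D1:**
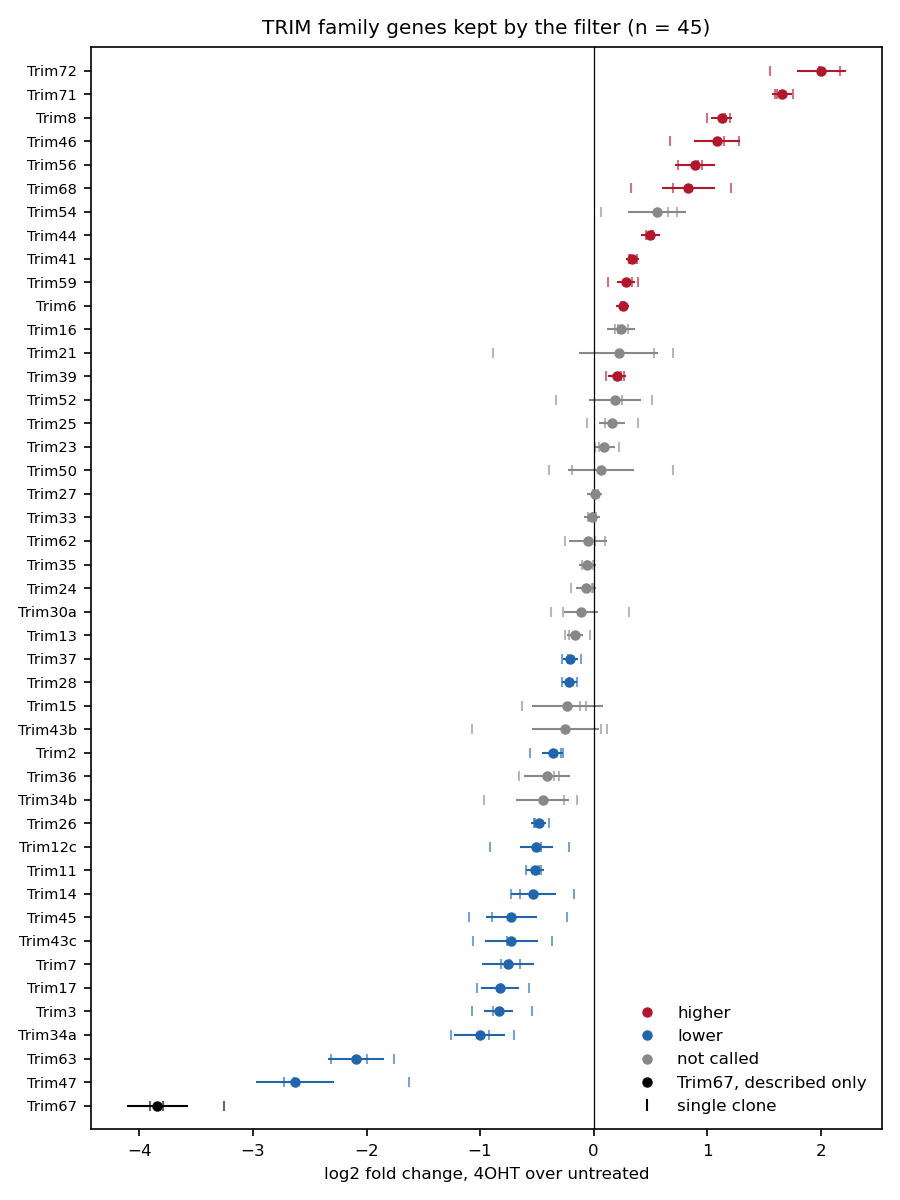
Log2 fold change, 4OHT over untreated, of the 45 tested TRIM genes (points, with bars of 1 standard error) and the difference within each clone (ticks); colour shows whether the gene was called higher, lower or not at all, and Trim67, whose p is not used, is drawn in black. Trim72 at 2.01 stands at the top, Trim47 at -2.63 is the lowest apart from Trim67, and most members lie within 1 of 0.

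The plot of fold changes orders the 45 members by size and sets each clone beside the fit. For the genes at either end the 3 clones lie on the same side of 0. Trim21, Trim25, Trim27, Trim30a, Trim33, Trim43b, Trim50, Trim52 and Trim62 have clones on both sides and were not called.

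Trim67 belongs to the C-I class, whose members pair the COS box with a fibronectin type III and a PRY-SPRY domain, and in mouse neurons it binds the netrin receptor DCC. It lies on the plus strand at chr8:124793092-124834713 (GRCm38). It had 1.48, 1.36 and 1.75 CPM in clones a, b and c after 4OHT, against 16.0, 23.3 and 27.0 CPM in the same clones untreated. Every treated library was far below every untreated one, and the treated values rest on 13, 11 and 12 counts, against 199, 307 and 275 untreated. The means were 1.53 ± 0.201 CPM after 4OHT and 22.1 ± 5.60 CPM untreated (SD, n = 3 each), a log2 fold change of -3.84 ± 0.27 (SE). Over the alternatives tried, this value ran from -4.04 to -3.70. Since this difference led to the choice of the family, no p is given for it. The neural markers had lower sums after 4OHT, 22.4 to 24.3 CPM against 33.4 to 38.4 CPM untreated. Most of each sum was Map2, which averaged 15.6 CPM after 4OHT and 23.7 CPM untreated. Tubb3 and Neurod1 were at 0 in every library, and whether another gene covers them was not checked. A link between these markers and Trim67 was not tested.

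The difference between clones was read from the same 6 libraries, in which each clone has 1 library per state. In a fit with treatment and clone terms, Trim67 in clone b was 0.50 and in clone c 0.71 above clone a on the log2 scale. This order is that of the untreated libraries. After 4OHT clone b, with 11 counts, was not above clone a, with 13. The clone values of Trim67 thus rest on the untreated libraries that also made its fall, and no p is given for them. Trim24, Trim25 and Trim71 passed edgeR's joint test of the clone terms, with adjusted p of 0.023, 0.042 and 0.048. The 4 of 45 members called, Trim67 among them, compare with 12.6% of all tested genes. Scaling by DESeq2 size factors or by totals gave 5 members each, beside 14.7% and 13.7% of all genes. With no filter 6 members were called, beside 11.4%, and with a filter of 1 CPM in 3 libraries 4, beside 12.4%. The additions were Trim8 and Trim56.

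The closest relative of Trim67 by protein sequence, over the 67 other members, was Trim9, with 62.6% identical residues over the shorter protein (768 residues in Trim67, 817 in Trim9). Trim9 is a brain E3 ligase that also binds DCC. It was too low to judge, with 2 counts over the 3 treated libraries and 10 over the 3 untreated. Trim46 and Trim36, the other C-I members, shared 27.3% and 26.2% of residues with Trim67. Trim46, which bundles microtubules at the start of the axon in neurons, had 7.54, 6.43 and 10.1 CPM after 4OHT, against 3.29, 3.95 and 4.02 CPM untreated. All its treated libraries lay above the untreated ones, and it rose with a log2 fold change of 1.08 ± 0.20 (edgeR adjusted p = 0.0012); its span overlaps Krtcap2. Trim36, a microtubule-binding ligase, had 6.51, 6.80 and 4.09 CPM after 4OHT, against 8.34, 8.43 and 6.57 CPM untreated. These libraries overlapped and Trim36 was not called (edgeR adjusted p = 0.11), but it was called lower with the clone as a replicate block, at an adjusted p of 0.029.

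The promoters of Trim67 and Trim71 are shown because these genes carried the deepest decrease and the most abundant increase of the family. Both run from 250 bases before to 50 bases after the annotated start, which is the capital letter, on the gene's strand (RefSeq, GRCm38.p6, chr8:124792769-124793068 plus strand and chr9:114564320-114564619 minus strand).
Trim67: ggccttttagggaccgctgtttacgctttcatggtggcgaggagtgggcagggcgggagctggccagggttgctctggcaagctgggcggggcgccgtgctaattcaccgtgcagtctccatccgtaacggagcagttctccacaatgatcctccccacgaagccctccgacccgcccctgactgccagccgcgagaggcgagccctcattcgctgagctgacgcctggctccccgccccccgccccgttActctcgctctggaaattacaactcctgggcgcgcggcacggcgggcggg
Trim71: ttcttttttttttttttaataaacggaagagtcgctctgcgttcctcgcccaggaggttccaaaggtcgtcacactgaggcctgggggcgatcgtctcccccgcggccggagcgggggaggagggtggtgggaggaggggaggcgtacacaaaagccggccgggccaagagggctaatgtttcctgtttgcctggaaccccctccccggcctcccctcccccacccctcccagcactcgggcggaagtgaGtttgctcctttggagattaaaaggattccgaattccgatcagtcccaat
The Trim67 promoter has 67.0% G and C and that of Trim71 59.3%, beside a median of 52.7% over all promoters. Neither window holds the letters of AP-1 (TGANTCA), ETS (CCGGAAG), EGR (GCGNGGGCG) or CRE (TGACGTCA) on either strand, which says only that these letters are not in these windows.

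Trim71 was the most abundant member in CPM in both groups. In mouse embryonic stem cells it binds mRNAs and represses them. It lies at chr9:114507133-114564369 on the minus strand. It had 2366, 2116 and 1936 CPM in clones a, b and c after 4OHT, against 699, 691 and 640 CPM untreated. The lowest treated library was thus well above the highest untreated one. The means were 2139 ± 216 and 677 ± 32.2 CPM (SD, n = 3 each), a 3.16-fold difference, with a log2 fold change of 1.66 ± 0.09 (edgeR adjusted p = 2.8e-07). By mean CPM Trim71 ranked 16 of all tested genes after 4OHT and 40 in untreated cells.

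This gene carried the change in the family's summed signal. The tested members together had 5185, 4823 and 4519 CPM after 4OHT, against 3414, 3372 and 3345 CPM untreated. Trim71 made up 45.6%, 43.9% and 42.8% of that sum after 4OHT, against 20.5%, 20.5% and 19.1% untreated. Without Trim71 the sums were 2819, 2707 and 2583 CPM after 4OHT and 2715, 2681 and 2705 CPM untreated, and these ranges overlap.

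The other tested NHL genes moved the opposite way. Trim3, a brain-enriched ligase and tumour suppressor, had 12.5, 9.53 and 10.2 CPM after 4OHT, against 18.3, 20.3 and 19.1 CPM untreated. It fell with a log2 fold change of -0.83 ± 0.13 (edgeR adjusted p = 0.00031). Trim2, which ubiquitinates neurofilament light chain, had 66.2, 64.5 and 51.4 CPM after 4OHT, against 79.7, 78.9 and 75.9 CPM untreated. It fell less, with a log2 fold change of -0.36 ± 0.09 (edgeR adjusted p = 0.0072). Without both libraries of clone b the call of Trim2 was lost, at an adjusted p of 0.052. Trim32, the remaining NHL member, lies wholly inside Astn2 and had no count.

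The chromatin members had high CPM and small differences between groups. Per kilobase, the measure used for levels between genes below, Trim28 ranked 4 after 4OHT and 2 untreated, Trim24 ranked 11 and 10, and Trim33 ranked 14 and 15. The rank of Trim28 is uncertain because of its annotated span, as given with those levels. Of that span 19.2% is shared with Zbtb45, and an effect of the span on the fold change of Trim28 was not tested. Trim28 had 438, 421 and 392 CPM after 4OHT, against 485, 488 and 476 CPM untreated. The groups did not overlap, and Trim28 fell with a log2 fold change of -0.21 ± 0.06 (edgeR adjusted p = 0.017). This call was lost without any of 4OHT clone b, untreated clone a or untreated clone b (adjusted p of 0.054, 0.057 and 0.062). Trim24, a nuclear receptor cofactor that targets p53, had 459, 451 and 368 CPM after 4OHT, against 461, 454 and 423 CPM untreated. Trim33, a ligase of SMAD4, had 175, 181 and 157 CPM after 4OHT, against 175, 178 and 163 CPM untreated. Both genes overlapped between groups and neither was called, with log2 fold changes of -0.07 ± 0.09 and -0.01 ± 0.07 (edgeR adjusted p of 0.54 and 0.91). Scaling by totals alone gave both a call as lower, with log2 values of -0.27 and -0.21.

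**Figure D2:**
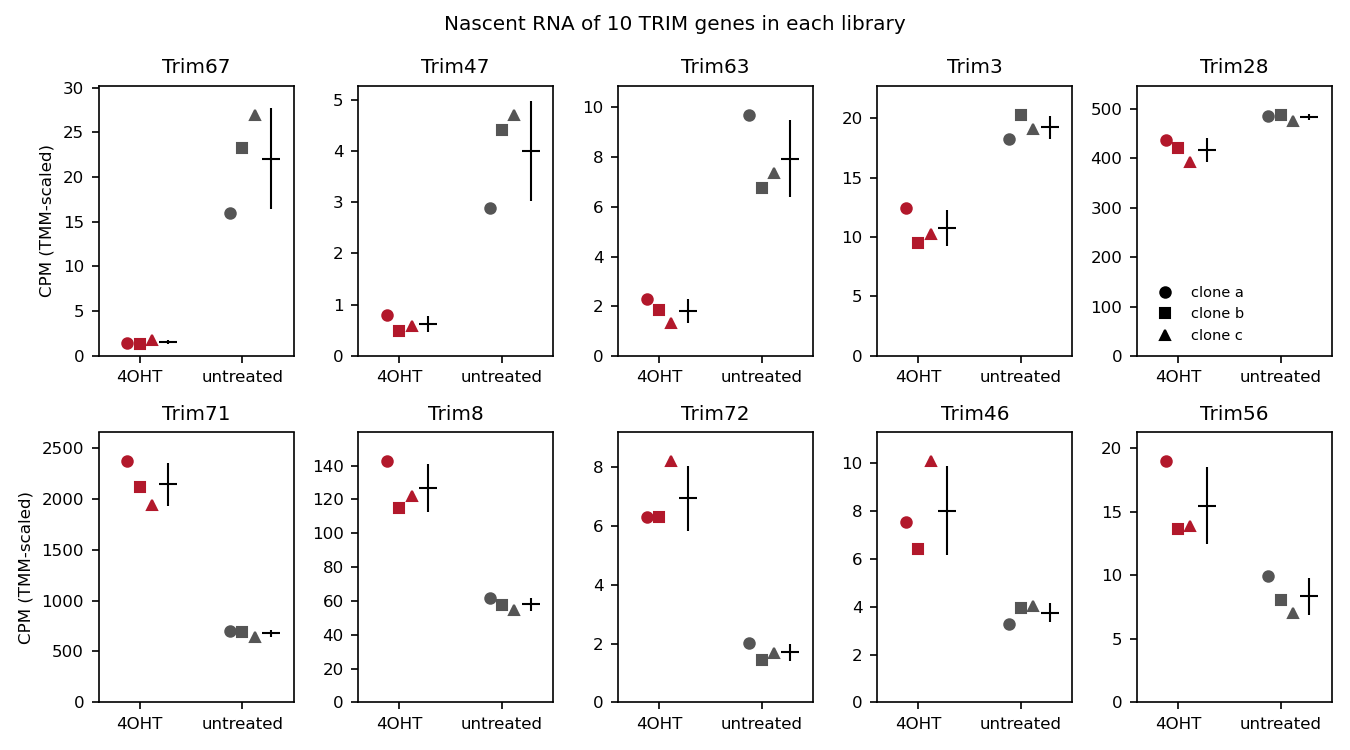
TMM-scaled CPM in each library for 10 TRIM genes, with 4OHT left of untreated, symbols for clones a, b and c, and the mean with 1 SD beside the points (n = 3 per group). In Trim71 the treated libraries sit between 1936 and 2366 CPM and the untreated between 640 and 699, and in Trim67 all treated values are below 2 CPM.

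All 10 genes in the plot of single libraries are ones whose groups did not overlap, so their separation there is no further result. Non-overlap was found for 31.4% of all tested genes as higher and 31.9% as lower. In Trim28 the means differ by far less, in proportion, than in the others. The plot also shows the spread of Trim67 among untreated clones, with clone a lowest.

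Muscle genes of the family were at low levels and went both ways. Trim63 (MuRF1), the ligase of muscle atrophy, lies at chr4:134315120-134329629 on the plus strand and had 2.28, 1.86 and 1.32 CPM after 4OHT, against 9.70, 6.76 and 7.35 CPM untreated. No library overlapped, and Trim63 fell with a log2 fold change of -2.09 ± 0.25 (edgeR adjusted p = 5.5e-05). Trim54 (MuRF3), a sarcomere and microtubule protein, was not called, with a log2 value of 0.56 (edgeR adjusted p = 0.087), or 0.025 without 4OHT clone b. Trim55 (MuRF2) was too low to judge. Trim72 (MG53), a PRY-SPRY protein of membrane repair in muscle, lies at chr7:128003949-128011033 on the plus strand and had 6.28, 6.31 and 8.18 CPM after 4OHT, against 2.00, 1.44 and 1.67 CPM untreated. It rose 4.02-fold, with a log2 fold change of 2.01 ± 0.22 (edgeR adjusted p = 3.0e-05).

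The class without a C-terminal domain held the rises of Trim8 and Trim56. Trim8, which binds the cytokine-signalling inhibitor SOCS1, lies at chr19:46501702-46516848 on the plus strand. It had 142, 115 and 122 CPM after 4OHT, against 61.8, 57.5 and 54.5 CPM untreated. Its treated libraries all lay above the untreated ones, and the log2 fold change was 1.13 ± 0.09 (edgeR adjusted p = 3.8e-06). Trim56, a ligase of antiviral signalling, had 19.0, 13.6 and 13.9 CPM after 4OHT, against 9.94, 8.05 and 7.06 CPM untreated. It rose with a log2 fold change of 0.89 ± 0.18 (edgeR adjusted p = 0.0016). Trim52 was not called, and Trim31 and Trim40 were too low to judge.

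PRY-SPRY genes of class C-IV were the largest class, with 36 members. Of its 23 tested genes, 5 were called higher, 8 lower and 10 neither way, beside 28.5% higher and 28.6% lower over all tested genes. Trim47, a ligase studied in human tumour cells, had the largest fall, with 0.800, 0.495 and 0.585 CPM after 4OHT, against 2.89, 4.40 and 4.70 CPM untreated. It fell with a log2 fold change of -2.63 ± 0.34 (edgeR adjusted p = 1.0e-04). Its 15 treated counts over 3 libraries, against 142 untreated, limit the precision. With 7, 4 and 4 counts after 4OHT, Trim47 passed the filter on low counts only through the untreated libraries, with 36, 58 and 48. It lies on the minus strand at chr11:116105752-116127210, and 25.0% of that span is shared with Trim65.

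Other falls in this class were smaller. Trim34a, an interferon-inducible gene, had 2.63, 1.98 and 3.07 CPM after 4OHT, against 4.41, 5.01 and 5.98 CPM untreated, and a log2 fold change of -1.003 ± 0.23 (edgeR adjusted p = 0.0035, or 0.051 without both libraries of clone b). In its transcripts, 41.3% of 50-base words occur in Trim34b as well, so reads may be split between these near copies and the value is uncertain. Trim17, a ligase of neuronal apoptosis, had 3.88, 4.33 and 3.65 CPM after 4OHT, against 6.97, 6.53 and 7.64 CPM untreated, and fell by 0.82 ± 0.17 on the log2 scale (edgeR adjusted p = 0.0019); its span overlaps Hist3h2a. Trim7, which binds glycogenin, had 4.68, 2.97 and 3.80 CPM after 4OHT, against 7.94, 5.39 and 6.08 CPM untreated, and a log2 value of -0.75 ± 0.23 (edgeR adjusted p = 0.016). It overlaps Gm12184, and its call was lost without 4OHT clone b or untreated clone a (adjusted p of 0.075 and 0.067). Trim43c, one of a group of near copies, had 3.31, 1.86 and 2.34 CPM after 4OHT, against 4.33, 4.10 and 4.12 CPM untreated. Its log2 value of -0.72 ± 0.23 (edgeR adjusted p = 0.022) lost its call under DESeq2 at 0.075 and without any of 4OHT clone b, 4OHT clone c, untreated clone a or untreated clone b, at up to 0.094. Trim11, Trim26 and Trim12c also fell, with log2 fold changes of -0.51 ± 0.08, -0.48 ± 0.07 and -0.50 ± 0.15 (edgeR adjusted p of 0.00031, 0.00017 and 0.014). Trim12c lost its call without both libraries of clone b, at an adjusted p of 0.093.

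The rises in class C-IV besides Trim72 were modest. Trim68, a coactivator of the androgen receptor in human cells, had 4.68, 6.06 and 3.51 CPM after 4OHT, against 2.81, 2.51 and 2.74 CPM untreated. Its log2 fold change was 0.84 ± 0.23 (edgeR adjusted p = 0.011), and without 4OHT clone b the call was lost (0.057). Trim41, which ubiquitinates protein kinase C, had 124, 119 and 118 CPM after 4OHT, against 94.7, 95.1 and 95.4 CPM untreated. It rose with a log2 fold change of 0.34 ± 0.06 (edgeR adjusted p = 0.00065), or 0.14 with no call when scaled by totals (0.070). Trim6, reported to ubiquitinate MYC in mouse embryonic stem cells, had 269, 264 and 268 CPM after 4OHT, against 225, 219 and 227 CPM untreated. Its libraries did not overlap and it rose by 0.26 ± 0.06 on the log2 scale (edgeR adjusted p = 0.0032). Scaled by totals, the value was 0.06 with no call (0.43). The small rise of Trim39, 0.21 ± 0.08 (edgeR adjusted p = 0.046), lost its call in 11 of 16 alternatives, among them every removal of 1 library other than 4OHT clone a, where the adjusted p was 0.087 to 0.14.

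Trim25 and Trim27 of the same class were not called. Trim25, the ligase of the RNA sensor RIG-I, had 145, 108 and 105 CPM after 4OHT, against 111, 101 and 109 CPM untreated, with clone a high after 4OHT. Its log2 value was 0.16 ± 0.11 (edgeR adjusted p = 0.25), and with the clone as a replicate block it was called higher at 0.041. Without 4OHT clone a the value was -0.0036. Trim27, a ligase of endosomes and of the nucleus, had 150, 142 and 156 CPM after 4OHT, against 146, 141 and 156 CPM untreated, and a log2 value of 0.01 ± 0.07 (edgeR adjusted p = 0.90). Scaled by totals it was -0.19 and was called lower (0.031).

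Members of the smaller classes filled the middle of the range. Trim59, a membrane-anchored protein, had 234, 224 and 233 CPM after 4OHT, against 178, 177 and 213 CPM untreated, with clone c high among the untreated. It rose by 0.28 ± 0.08 on the log2 scale (edgeR adjusted p = 0.012). The call was lost without untreated clone a or b (adjusted p of 0.053 and 0.060) and when scaled by totals, where the value was 0.08 (0.35). Trim44, which lacks a RING and carries a ubiquitin-protease type zinc finger, had 39.9, 42.8 and 44.7 CPM after 4OHT, against 28.9, 30.0 and 31.1 CPM untreated. It rose by 0.50 ± 0.08 (edgeR adjusted p = 0.00048).

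Trim37, a MATH-domain ligase that limits centriole assembly, had 113, 126 and 117 CPM after 4OHT, against 132, 137 and 142 CPM untreated. It fell with a log2 fold change of -0.20 ± 0.07 (edgeR adjusted p = 0.023), a call lost under DESeq2 (0.059) and without 4OHT clone a or untreated clone b (0.10 and 0.065). Trim45, with a filamin domain, had 5.25, 3.84 and 7.89 CPM after 4OHT, against 9.94, 8.43 and 9.31 CPM untreated. Its log2 value was -0.72 ± 0.22 (edgeR adjusted p = 0.018), and the call was lost without any of 4OHT clone a, 4OHT clone b or untreated clone a (0.059, 0.073 and 0.051). Trim14, a RING-less adaptor of antiviral signalling that overlaps Nans, had a log2 value of -0.53 ± 0.20 (edgeR adjusted p = 0.041) and lost the call in 10 of 16 alternatives. Trim13, a ligase of the endoplasmic reticulum, was not called at a log2 value of -0.17 ± 0.07 (edgeR adjusted p = 0.068), and was called lower with the clone as a replicate block (0.024).

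Levels between genes were compared as CPM per kilobase of the gene span that no other gene shares. In untreated cells the 5 highest members were Trim59, Trim28, Trim6, Trim71 and Trim27. Trim59 had 24.3 CPM per kb after 4OHT and 20 in untreated cells, Trim28 had 16.2 and 18.7, and Trim6 had 16.3 and 13.7. Trim71 had 37.9 CPM per kb after 4OHT and 11.98 in untreated cells, and Trim27 had 9.75 and 9.68. In untreated libraries Trim59 ran from 18.7 to 22.5 and Trim28 from 18.5 to 18.9 CPM per kb, so these neighbours overlapped, while Trim6 (13.4 to 13.9), Trim71 (11.3 to 12.4) and Trim27 (9.26 to 10.2) did not overlap each other. After 4OHT Trim71 was first of the 65 members with such a level, followed by Trim59, Trim6 and Trim28. This order depends on the annotated spans. The RefSeq promoter of Trim28 (chr7:13023902-13024201) lies far inside its span (chr7:12999114-13031035), so its level per kb may be too low and its rank is uncertain. Trim67 ranked 47 after 4OHT with 0.0368 CPM per kb and 24 in untreated cells with 0.530 CPM per kb.

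**Figure D3:**
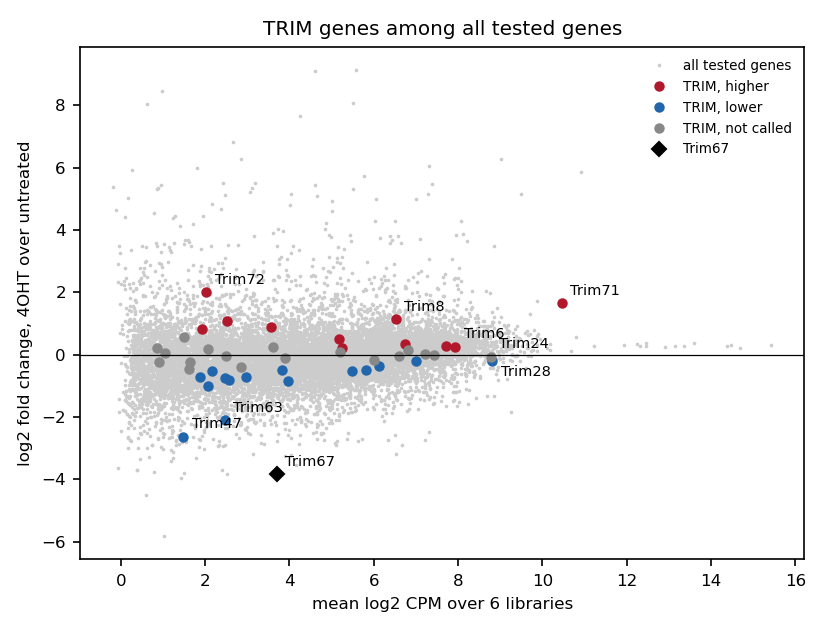
Log2 fold change, 4OHT over untreated, against the mean log2 CPM over 6 libraries for the tested TRIM genes (coloured points and the Trim67 diamond) and all 13869 tested genes (grey). Trim71 lies to the right at a log2 fold change of 1.66, Trim28 and Trim24 are next in level and lie near 0, and Trim47 and Trim63 are at low levels.

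The plot of level against change places the family within the cloud of all genes. Apart from Trim71, the members past a log2 fold change of 1 in either direction were not the most abundant ones. Trim21, with 1.83, 2.35 and 1.02 CPM after 4OHT and 1.20, 1.37 and 2.06 CPM untreated and an uncalled log2 value of 0.22, has one of the widest bars in the plot of fold changes.

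Several members sit next to each other in the genome. The largest cluster, with neighbours at most 100 kb apart, covers chr7:104218793-104507849 and holds 10 genes, of which 5 were tested. Trim6 rose there (with no call when scaled by totals), Trim34a and Trim12c fell, and Trim34b and Trim30a were not called. The other 5 genes, Trim5, Trim12a, Trim30b, Trim30c and Trim30d, were too low to judge. Per kilobase, Trim6 had 16.4, 16.1 and 16.4 CPM after 4OHT and 13.7, 13.4 and 13.9 CPM untreated, while the next highest gene of the cluster, Trim12c, had 0.907, 0.805 and 0.600 CPM per kb after 4OHT and 1.06, 1.11 and 1.14 CPM per kb untreated. On chromosome 11, Trim41 rose and its neighbour Trim7 fell (chr11:48806404-48852209), while Trim17 and Trim11 both fell (chr11:58954685-58991458). In the group at chr17:36837134-36910214, Trim26 fell, Trim15 was not called, and Trim10, Trim40 and Trim31 were too low.

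**Figure D4:**
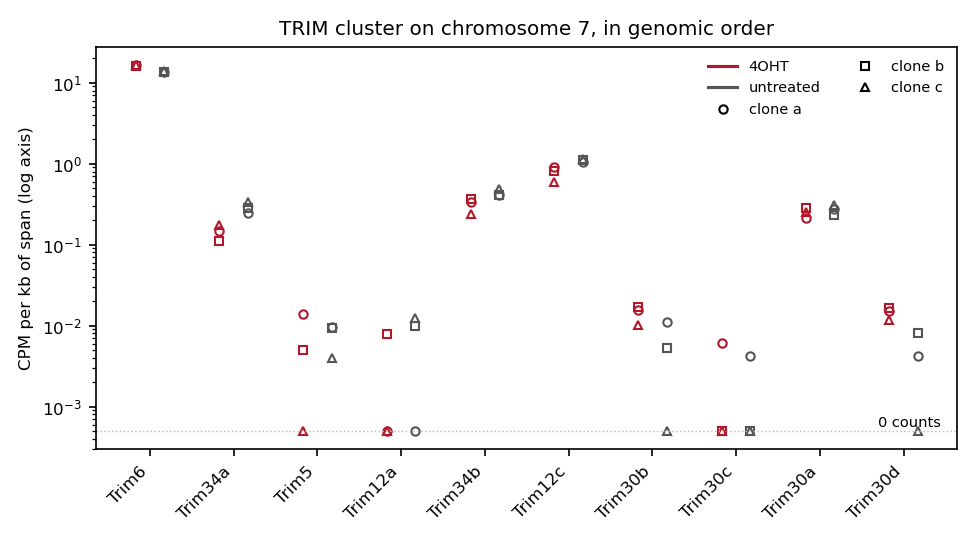
CPM per kilobase of unshared span (log axis) for the 10 genes of the TRIM cluster on chromosome 7, in genomic order, with 4OHT left of untreated and a symbol for each clone; libraries with 0 counts are drawn on the dotted line. Trim6 at 13.4 to 16.4 stands above all its neighbours, and 5 genes are close to 0 in every library.

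The plot of the chromosome 7 cluster shows genes with hardly any reads between genes with many. Near copies limit this region: 59.0% of the 50-base words of Trim34b occur in Trim34a, and 24.7% of those of Trim5 occur in Trim12c.

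The 20 members too low to judge were Trim5, Trim9, Trim10, Trim12a, Trim29, Trim30b, Trim30c, Trim30d, Trim31, Trim38, Trim40, Trim42, Trim43a, Trim55, Trim58, Trim60, Trim65, Trim66, Trim75 and Trim80. None had more than 18 counts over the 3 treated libraries or 31 over the 3 untreated ones. Their highest mean level was 0.737 CPM after 4OHT and 0.848 CPM in untreated cells, and 3 counts correspond to 0.343 to 0.438 CPM in a treated and 0.228 to 0.294 CPM in an untreated library. With no filter on low counts, 0 of these 20 were called. Trim32, Trim61 and Trim69 lie within Astn2, Trim60 and Patl2, and their 0 counts do not bear on their transcription. Of 908 coding genes wholly inside other counted genes 99.3% were at 0, beside 14.7% of 16161 coding genes with no overlap.

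Promoters were found in RefSeq for 53 of the 68 members, 67 promoters in all. The ETS letters CCGGAAG, read on either strand, occurred in 5 of these promoters (7.46%), beside 8.86% of all 32851 promoters. They belonged to 4 genes, Trim39, Trim41, Trim44 and Trim46, and all 4 were called higher, with the limits on Trim39 and Trim41 given above. Of the 28 tested members whose listed promoters all lack these letters, 6 were called higher (21.4%) and 10 lower (35.7%), Trim67 not counted. Over all tested genes, 32.6% of 2008 with the letters were called higher and 21.1% lower, and 27.9% of 8611 without them were called higher and 30.4% lower. That the members with these letters were all called higher was noticed after the values were seen, and a match is a description of the sequence, not a bound site.

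The matches are shown because each of these 4 genes has a promoter that holds them. Trim39 and Trim46 also have listed promoters without the letters, and the matching windows of Trim39 overlap and hold the same site. Which start was in use was not examined. Each is given with up to 15 bases on either side, on the gene's strand (RefSeq, GRCm38.p6), with the letters in capitals. CTTCCGG is the reverse complement of CCGGAAG.
Trim39, chr17:36271429-36271465, minus strand: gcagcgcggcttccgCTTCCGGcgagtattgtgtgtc
Trim41, chr11:48817351-48817387, minus strand: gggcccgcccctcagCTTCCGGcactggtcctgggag
Trim44, chr2:102401127-102401150, minus strand: tcCTTCCGGgggggatgctcagcc
Trim44, chr2:102400924-102400960, minus strand: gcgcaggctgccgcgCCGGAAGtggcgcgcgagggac
Trim46, chr3:89245041-89245077, minus strand: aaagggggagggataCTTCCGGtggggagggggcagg
The match begins 19 bases before the annotated start in Trim39, 49 before it in Trim46, 248 and 45 before it in Trim44, and 19 after it in Trim41. The AP-1 letters TGANTCA occurred in 10 of the 67 TRIM promoters (14.93%, against 7.81% of all promoters), the EGR letters GCGNGGGCG in 5 (7.46% against 5.55%) and the CRE letters TGACGTCA in 2 (2.99% against 1.79%). Among tested members with AP-1 letters, 1 of 6 was called higher and 1 lower, beside 34.7% and 28.3% of 668 tested genes with them. With EGR letters 2 of 5 members were called higher and 1 lower, beside 37.0% and 26.3% of 1311 genes, and with CRE letters 0 of 2 were called higher and 1 lower, beside 30.8% and 23.4% of 367 genes.

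Lists of genes that work with these proteins were read from the same fit, in which 28.5% of all genes were called higher and 28.6% lower, or 2407 and 5684 of them when scaled by totals. Of 8 tested genes of TRIM or related proteins with other symbols, 2 were called higher and 2 lower, with a median of 0.11. Fsd1l, related by its FN3 and SPRY domains, averaged 93.4 ± 8.17 CPM after 4OHT and 52.0 ± 1.19 CPM untreated (SD, n = 3 each; log2 fold change 0.85 ± 0.08, edgeR adjusted p = 9.6e-06). Mid1 (Trim18), a microtubule-bound ligase, averaged 286 ± 17.5 CPM after 4OHT and 224 ± 17.5 CPM untreated, and rose by 0.35 ± 0.08 (edgeR adjusted p = 0.0027). Rnf207, a cardiac ligase that overlaps Icmt, fell with a log2 fold change of -1.22 ± 0.26 (edgeR adjusted p = 0.0024). With the clone as a replicate block 4 of these genes were called higher, and with scaling by totals 1.

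Among 12 tested netrin receptors and partners, whose pathway Trim9 and Trim67 serve in neurons, 3 were called higher and 1 lower, and their log2 fold changes had a median of 0.39. Vasp, the actin regulator ubiquitinated through Trim9, averaged 244 ± 9.58 CPM after 4OHT and 78.5 ± 2.89 CPM untreated, and rose by 1.64 ± 0.06 on the log2 scale (edgeR adjusted p = 4.3e-08). Unc5b, a netrin receptor of repulsion, averaged 33.9 ± 4.98 CPM after 4OHT and 113 ± 13.3 CPM untreated, and fell with a log2 fold change of -1.74 ± 0.12 (edgeR adjusted p = 1.1e-06). Neo1, another netrin receptor, rose by 0.61 ± 0.07 (edgeR adjusted p = 3.3e-05). Dcc itself was not called, at 0.54 (edgeR adjusted p = 0.19). With the clone as a replicate block, 5 of these genes were called higher, as were 5 without 4OHT clone c and 6 without both libraries of clone c; scaled by totals, 2 were called lower.

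Of 15 partners of Trim28 in silencing, 6 were called higher and 3 lower, with a median of 0.05. Chd3, a nucleosome remodeller that the Trim28 PHD-bromodomain recruits, averaged 40.8 ± 11.1 CPM after 4OHT and 11.4 ± 1.09 CPM untreated (log2 1.83 ± 0.18, edgeR adjusted p = 1.5e-05). Atrx, a remodeller at heterochromatin, averaged 644 ± 117 CPM after 4OHT and 278 ± 25.5 CPM untreated (log2 1.21 ± 0.12, edgeR adjusted p = 2.1e-05). Zfp568, a KRAB zinc finger protein, fell with a log2 fold change of -0.57 ± 0.08 (edgeR adjusted p = 0.00014). Scaled by totals the list had 5 higher and 6 lower, with the clone as a replicate block 5 were lower, and without both libraries of clone b 1 was.

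The list around Trim71, 15 tested genes of LIN28, let-7 processing and Argonaute proteins, had 5 called higher and 3 lower, or 2 and 6 when scaled by totals, and a median of 0.02. Without both libraries of clone b, 3 were called higher. Lin28a, which blocks let-7 maturation, averaged 94.1 ± 5.41 CPM after 4OHT and 158 ± 16.9 CPM untreated, and fell with a log2 fold change of -0.75 ± 0.09 (edgeR adjusted p = 4.4e-05). Its paralog Lin28b averaged 91.3 ± 7.14 CPM after 4OHT and 69.4 ± 5.34 CPM untreated, and rose by 0.39 ± 0.08 (edgeR adjusted p = 0.0024). Drosha, the nuclear microRNA processing enzyme, rose by 0.56 ± 0.07 (edgeR adjusted p = 5.7e-05), and Zcchc6, a uridylyl transferase of let-7 precursors, by 0.61 ± 0.09 (edgeR adjusted p = 0.00029).

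Interferon and innate sensing genes, in whose pathways many PRY-SPRY members act, had 10 of 17 tested genes called lower and 2 higher, beside 28.6% and 28.5% of all genes, and their log2 fold changes had a median of -0.71. The list held 25 genes, and Isg15, Mx1, Mx2, Ifit1, Ifit3 and Rsad2 were among those not tested. The genes called higher were Ifnar1 (log2 0.51 ± 0.13) and Ddx58 (0.54 ± 0.14), with edgeR adjusted p of 0.0077 and 0.0081. Scaled by totals, 11 were lower and 0 higher, and without both libraries of clone a or of clone b 1 and 0 were higher. Stat2 averaged 12.7 ± 1.31 CPM after 4OHT and 35.2 ± 2.05 CPM untreated, and fell with a log2 fold change of -1.47 ± 0.11 (edgeR adjusted p = 2.3e-06). Irf9, a transcription factor of the interferon response that overlaps Rnf31, fell with a log2 fold change of -0.95 ± 0.11 (edgeR adjusted p = 6.2e-05). The members named here for antiviral roles did not share one direction: Trim56 rose, Trim34a and Trim14 fell, and Trim25 was not called.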

How the data were processed

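The table holds whole-number counts of reads for each gene symbol, deposited by the authors without normalization. Per the submitters' processing notes, STAR and featureCounts were used on mm10, with versions and settings not given in the sources used here. In these counts, 99.2% of 131 coding genes inside 1 other gene on the same strand without a shared exon, and 99.4% of 315 on the opposite strand, were at 0. Reads thus appear to have been counted over whole gene spans, without strand, and dropped where genes overlap, which lowers members that overlap another gene (19 of 68).

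The members and gene lists were chosen with earlier results of these data known. Positions came from GENCODE on GRCm38, where all 68 symbols matched once. The filter was filterByExpr (at least 10 counts in enough libraries and 15 in all), and the test ran over all 13869 with edgeR 4.0.16 in R 4.3.3: TMM scaling, glmQLFit and glmQLFTest on 3 against 3 libraries with no clone term, and Benjamini-Hochberg adjustment at 0.05. CPM values are TMM-scaled. The named members were Trim67, the 8 largest rises and falls among called members whose mean log2 CPM reached 1, the 5 of highest untreated level per kb, 15 members set by name, and up to 3 genes per list by adjusted p. Dcc, Lin28b, Ifnar1 and Ddx58 were named after their values were seen.

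Clones are the replicates; nothing says that they were cultured separately by day, so p-values cover only how these libraries vary. Libraries of a group varied beyond sampling error: the chi-square per gene was 2.29 after 4OHT and 2.46 untreated between clones a and b, and 5.38 to 11.5 in pairs with clone c. Each clone gives 1 treated and 1 untreated library, which is where the pairing comes from; their deviations correlated at 0.28, 0.16 and 0.36, against -0.28 to 0.07 between clones. Depth intervals and floors of 3 counts cover counting error only. On simulated counts for 13718 genes, 98.0% of genes set to a log2 change of -2, 83.7% at -1, 86% at 1 and 0.14% of unchanged genes were called. In that simulation 13520 genes were unchanged and clones did not differ. Far larger shares of genes were called in the data, so these rates need not carry over. Alternatives were scaling by DESeq2 size factors or by totals, other filters, DESeq2 1.42.0, limma-voom (limma 3.58.1), a clone block, stricter thresholds and leaving out libraries. Protein identity was computed from annotated coding sequences with Biopython 1.88.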

Additional observations from a re-analysis of the deposited data

How the results depend on the processing

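Scaling by totals gave 2407 genes higher over the whole table, 7 members higher and a median log2 fold change of the members of -0.26; Trim41, Trim59, Trim6 and Trim39 lost their calls, Trim13, Trim24, Trim27, Trim33, Trim34b, Trim35 and Trim36 were called lower, and the uncalled Trim25 (-0.040), Trim27 (-0.19), Trim23 (-0.10), Trim50 (-0.14) and Trim52 (-0.0087) changed sign. Asking for a log2 fold change of at least 1 left 947 genes higher and 1324 lower, of them 4 members higher and 3 lower; an adjusted p below 0.01 left 8 members lower. With libraries left out, 7 to 11 members were higher and 6 to 14 lower. The clone as a replicate block, which pairs the libraries, gave 12 members higher and 17 lower, beside 4725 and 4623 over all genes; it called Trim13, Trim25 and Trim36 and changed no other call among the members. Over all 16 alternatives, 6 of 11 calls as higher (Trim44, Trim46, Trim56, Trim71, Trim72 and Trim8) and 6 of 15 as lower (Trim11, Trim17, Trim26, Trim3, Trim47 and Trim63) were kept. The share of calls kept over all genes is not given here, so these counts are no trait of the family. Among uncalled members, the log2 value changed sign when libraries were left out, with ranges of -0.41 to 0.0048 (Trim15), -0.13 to 0.66 (Trim21), -0.12 to 0.032 (Trim24), -0.0036 to 0.25 (Trim25), -0.021 to 0.049 (Trim27), -0.33 to 0.022 (Trim30a), -0.062 to 0.048 (Trim33), -0.10 to 0.0039 (Trim35), -0.57 to 0.10 (Trim43b), -0.33 to 0.34 (Trim50), -0.019 to 0.41 (Trim52) and -0.13 to 0.057 (Trim62). The cause was not tested. Depth limits the 20 lowest members and the treated levels of Trim67 and Trim47.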
